A study of Mus musculus with 6 samples.

Results

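The 10 genes described here make and fill the secretory granules from which peptide hormones and neuropeptides are released: Scg5, Pcsk1, Pcsk2, Cpe, Pam, Chga, Chgb, Scg2, Scg3 and Vgf. They were taken by gene symbol from 17645 genes listed in RNA-seq tables of the mouse suprachiasmatic nucleus (SCN), a small hypothalamic nucleus that keeps circadian time. Scg5 was chosen by its CPM and fold change between the genotypes in these same libraries, so that difference is given as a description with no test. The other 9 were added for their function, with the earlier results known, and all 10 passed the filter on low counts.

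The study had 3 libraries titled V (replicates 2, 3 and 4) and 3 titled r1r2V (replicates 1, 4 and 5), each from the pooled RNA of 2 SCN. All came from female C57BL/6 mice killed in the dark between zeitgeber time (hours after lights on) 12 and 14. From the series title, r1r2V was taken to mean loss of both REV-ERB genes (Nr1d1 and Nr1d2, clock repressors) from GABAergic neurons, with V as its control. The tissue was punched by needle from frozen coronal sections. Not stated in the sources are the driver of the deletion, the meaning of the letter V, the age of the mice and whether control animals carry a Cre or floxed alleles. Nothing says that the pools came from separate animals, so each p-value reflects only how far these samples spread, which may be technical.

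Peptide hormones are made as long precursors that are cut and trimmed inside dense-core granules. Prohormone convertases, encoded by Pcsk1 and Pcsk2, cut precursors after pairs of basic residues. The protein of Scg5 binds the precursor of the Pcsk2 convertase and is required for it to mature into an active enzyme. Carboxypeptidase E (Cpe) then removes the basic residues left at the cut, and the Pam enzyme amidates the C-terminus of peptides that end in glycine, such as vasopressin and VIP of the SCN. Granins (Chga, Chgb, Scg2, Scg3, Vgf) are acidic granule proteins that help cargo to condense and are themselves cut into peptides.

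Total expected counts, the authors' estimated reads per gene, ran from 15729603 to 17780928 per library. Neither targeted gene was lower in the libraries labelled r1r2V: Nr1d1 had 56.7, 62.5 and 57.0 CPM (counts per 1000000 of the library) in V against 196, 157 and 147 CPM in r1r2V, and Nr1d2 had 177, 179 and 168 against 229, 275 and 222 CPM. The direction of each comparison therefore rests on the titles. The deleted exons are not named in the labels, and gene totals therefore do not check the deletion. All 8 SCN markers were measured, and their summed level was 505 to 575 CPM in V and 442 to 561 in r1r2V. Avp, 1 of them, had 247 to 360 CPM in V and 160 to 384 in r1r2V, so the sum leans on it. In r1r2V replicate 5, the highest r1r2V library for the sum and for Avp, 2 other markers were the lowest of all libraries. These were Vip, at 11.4 CPM against 50.5 to 85.8 elsewhere, and Prok2, at 1.75 against 2.99 to 20.5. The sum therefore does not show equal SCN content. Oxt, the oxytocin gene of neighbouring hypothalamic nuclei, was present as well, at 707 to 946 CPM in V and 500.5 to 788 in r1r2V.

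One control library stood apart in genes of another peptide-secreting tissue. V replicate 3 held 457 CPM of Gh and 426 of Prl, hormone genes of the anterior pituitary, against at most 0.0636 and 0.763 in the other 5 libraries. The 6 pituitary hormone genes summed to 905 CPM in that library and to at most 1.35 in each of the others, and Tshb was at 0 in it. Pomc, which pituitary and tuberal hypothalamic cells both express, was at 305 there against 2.73 to 68.0 elsewhere. Pmch, the melanin-concentrating hormone gene of the lateral hypothalamus, reached 574 in r1r2V replicate 5 and 215 in V replicate 3, against 1.65 to 23.3 in the other 4. These cells also make granule proteins, so the values without each library are given where they change a result. In bulk tissue, fewer cells of a type and less RNA per cell cannot be told apart.

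The start regions of these genes are shown first, because granin genes are textbook targets of cAMP signalling and clock genes are read through short promoter elements. RefSeq promoters of GRCm38.p6, from 250 bases before to 50 bases after each start, were found for 8 of the 10 genes and not for Cpe or Vgf. The last 100 bases before the start are printed 5′ to 3′ on the gene's own strand. Capitals mark the cAMP response element TGACGTCA or, in Chga, the variant TGACGTAA, which was searched only after the sequences had been read.
Scg2, chr1:79440027-79440126, minus strand: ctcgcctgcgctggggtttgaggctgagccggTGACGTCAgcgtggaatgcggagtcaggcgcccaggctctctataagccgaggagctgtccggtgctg
Chgb, chr2:132781542-132781641, plus strand: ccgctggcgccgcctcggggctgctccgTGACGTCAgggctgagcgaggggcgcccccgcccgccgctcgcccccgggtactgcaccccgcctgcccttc
Pcsk1, chr13:75089757-75089856, plus strand: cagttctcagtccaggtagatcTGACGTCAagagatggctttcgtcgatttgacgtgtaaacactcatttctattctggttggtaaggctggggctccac
Chga, chr12:102554841-102554940, plus strand: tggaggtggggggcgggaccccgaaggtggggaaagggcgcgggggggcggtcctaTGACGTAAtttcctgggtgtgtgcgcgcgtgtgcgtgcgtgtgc
Scg5, chr2:113829092-113829191, minus strand: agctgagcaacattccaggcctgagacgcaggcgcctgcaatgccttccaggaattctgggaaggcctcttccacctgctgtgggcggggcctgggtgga

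The element TGACGTCA was found in Scg2, Chgb and Pcsk1, beginning 68, 72 and 78 bases before the start. That start is the RefSeq transcript start used for each window, and other annotated starts lie farther upstream. The RefSeq gene Pcsk1 begins at 75089420, and the GENCODE genes Chgb and Scg2 (minus strand) begin at 132781278 and 79440120. By those starts the elements lie inside the genes. It was in 3 of these 8 genes and in 2.03% of all 27025 genes with promoters of the same length (1.79% of 32851 promoters). The Chga variant begins 44 bases before the start and was in 0.581% of all genes. Both strands were searched. The Scg5 window held neither sequence. None of the 8 genes held the E-box CACGTG (8.09% of all genes) or the D-box TTATGTAA (1.11%). The nuclear receptor core AGGTCA (18.1%) and the longer REV-ERB and ROR element, which can contain AGGTCA (0.459%), were likewise absent. That says only that these letters are not in the windows searched.

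In the V libraries, 3 of the 10 genes stood well above the rest when levels were expressed per transcript length. The measure was FPKM (fragments per kilobase and per 1000000 fragments), as deposited by the authors. The punches also held mRNAs of neighbouring cells, such as Oxt, so these are not levels of the SCN alone. Cpe, the trimming enzyme, was highest with 1095, 1015 and 1077 FPKM in the V libraries, rank 22 among all listed genes. Scg2 followed with 709, 668 and 609 FPKM (rank 70). Scg5 came next with 338, 335 and 339 FPKM (rank 224). No range of these 3 touched that of its neighbour in the order.

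The other granins formed a group whose ranges ran into each other. Mean FPKM in V was 155 ± 12.9 for Chga, 144 ± 12.6 for Vgf, 135 ± 4.47 for Chgb and 134 ± 2.11 for Scg3 (SD, n = 3 each). Neighbours among these 4 did not differ beyond their spread, and leaving out any 1 V library exchanged a pair among Vgf, Chgb and Scg3. Pam was at 85.9 ± 4.87, Pcsk2 at 53.6 ± 0.951 and Pcsk1 at 15.9 ± 1.2 FPKM (SD, n = 3 each), each clear of the next. Within the same libraries, Scg2 was 4.30 ± 0.643 times Chga and Pcsk2 was 3.38 ± 0.327 times Pcsk1 (SD, n = 3). The convertase genes were thus the lowest of the 10, and Cpe mRNA was 67.0 ± 6.28 times that of Pcsk1 (SD, n = 3). By mean FPKM in r1r2V the same 3 genes led, though in replicate 1 Scg5 (657) was just above Scg2 (653). Chga stood at place 7 of 10 by mean, behind Vgf, Chgb and Scg3. Its r1r2V range of 102 to 139 FPKM overlapped those of Chgb (124 to 150) and Scg3 (127 to 141).

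**Figure D1:**
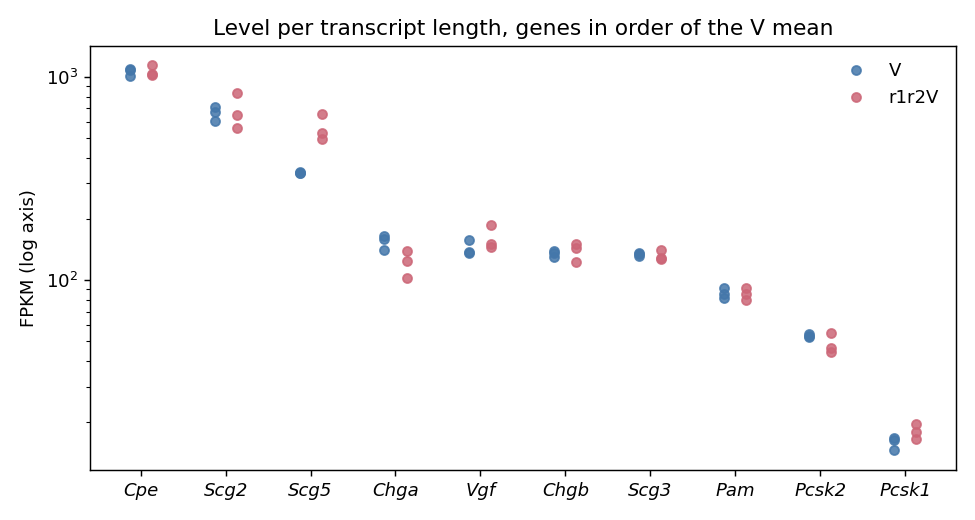
FPKM (log axis) of each gene in the 3 V libraries (blue) and the 3 r1r2V libraries (red), 1 point per library, in order of the V mean. Cpe, Scg2 and Scg5 lead, the V points of Chga, Vgf, Chgb and Scg3 lie between 130 and 166 FPKM, and Pcsk1 is lowest at 14.6 to 16.8 FPKM in V.

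Scg5 was the member with the widest difference between the genotypes. On the CPM scale of the scaled libraries, it had 382, 375 and 382 CPM in V replicates 2, 3 and 4, against 733, 565 and 597 CPM in r1r2V replicates 1, 4 and 5. All 3 r1r2V libraries lay above all 3 V libraries, and r1r2V replicate 1 was highest. The control values were close together, at 380 ± 3.79 CPM, and the r1r2V values wider apart, at 632 ± 89.2 CPM (SD, n = 3 each). The log2 fold change was 0.73 with a standard error of 0.09, a 1.66-fold higher level. It ran from 0.61 to 0.81 when any 1 library was left out, 0.73 without V replicate 3 and 0.77 without r1r2V replicate 5.

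Over all 14438 genes tested with edgeR's quasi-likelihood test, 0.298% were called higher and 0.118% lower at an adjusted p of 0.05, and in 6.87% every r1r2V value exceeded every V value. Scg5 was the 1 member of 10 called, and since this contrast led to its choice nothing is read from that count. The count was 0 without any 1 V library and 1 without any 1 r1r2V library, and the direction of Scg5 was the same in every alternative tried.

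Scg5 (gene 20394) lies on chromosome 2 from 113776313 to 113829091 in the RefSeq annotation of GRCm38, on the minus strand. No other gene of the GENCODE annotation overlaps it on either strand. Overlapping genes were annotated for Pam (5), Pcsk2 (2) and Scg3 (1), whose values are uncertain to that extent. By transcript sequence, no member has a near-identical transcript elsewhere (95% identity over at least 0.5 of the shorter transcript).

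**Figure D2:**
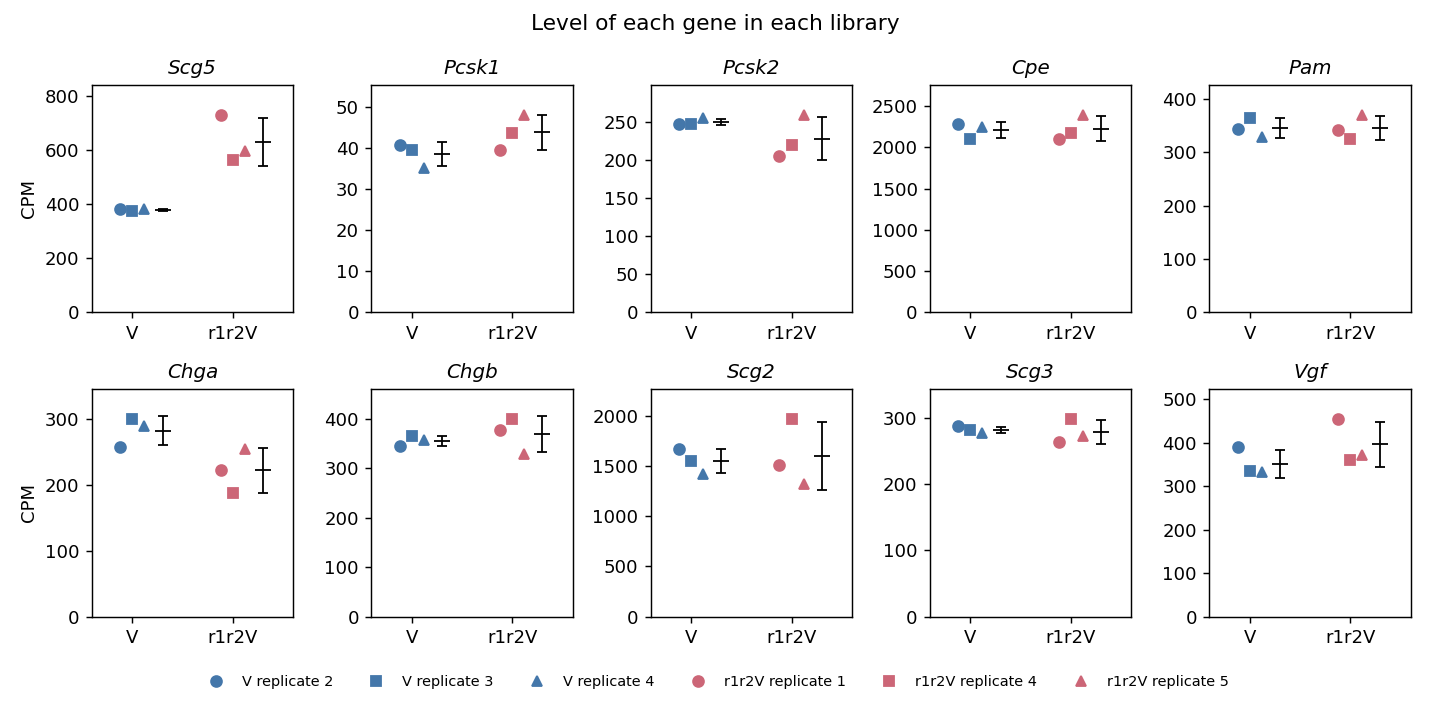
CPM of each of the 10 genes in the V libraries (blue) and the r1r2V libraries (red), 1 symbol per library. Black marks are means ± SD (n = 3), and axes start at 0. Scg5 separates the groups upward, Chga downward by a narrow gap, and the groups overlap for the other 8.

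Of the convertases, neither passed the test. Pcsk2, the client of the Scg5 protein, had 247, 247 and 255 CPM in V against 205, 219 and 259 CPM in r1r2V, so its r1r2V libraries lay on both sides of the control range. Its log2 fold change was -0.13 (SE 0.08), with a 95% interval of 0.801 to 1.04-fold (edgeR, adjusted p = 0.718). Reads of Pcsk2 and of 2 antisense genes that overlap it, Pcsk2os1 and Pcsk2os2, cannot be told apart where counting did not use strand, which is not given. Pcsk1 had 40.7, 39.4 and 35.1 CPM in V against 39.5, 43.7 and 48.1 CPM in r1r2V, and the groups overlapped (log2 fold change 0.19, 95% interval 0.989 to 1.31-fold, edgeR, adjusted p = 0.662).

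The balance of chaperone and convertase mRNA, per transcript length, moved with Scg5. Within V libraries Scg5 was 6.40, 6.28 and 6.20 times Pcsk2, and within r1r2V libraries 14.8, 10.7 and 9.59 times. These ratios contain the Scg5 values that led to its choice and carry no test. The ratio of Pcsk2 to Pcsk1 was 3.14, 3.25 and 3.75 in V and 2.69, 2.60 and 2.79 in r1r2V, with no overlap. It was looked at after the values were known and was not tested. Groups did not overlap in 14.5% of single genes tested. The share over ratios was not counted, so nothing is read from the lack of overlap. Pcsk1n, which encodes proSAAS, an inhibitor of the Pcsk1 convertase, was 33.3, 35.2 and 38.7 times Pcsk1 in V and 36.6, 21.0 and 27.6 times in r1r2V, where the groups overlapped.

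**Figure D3:**
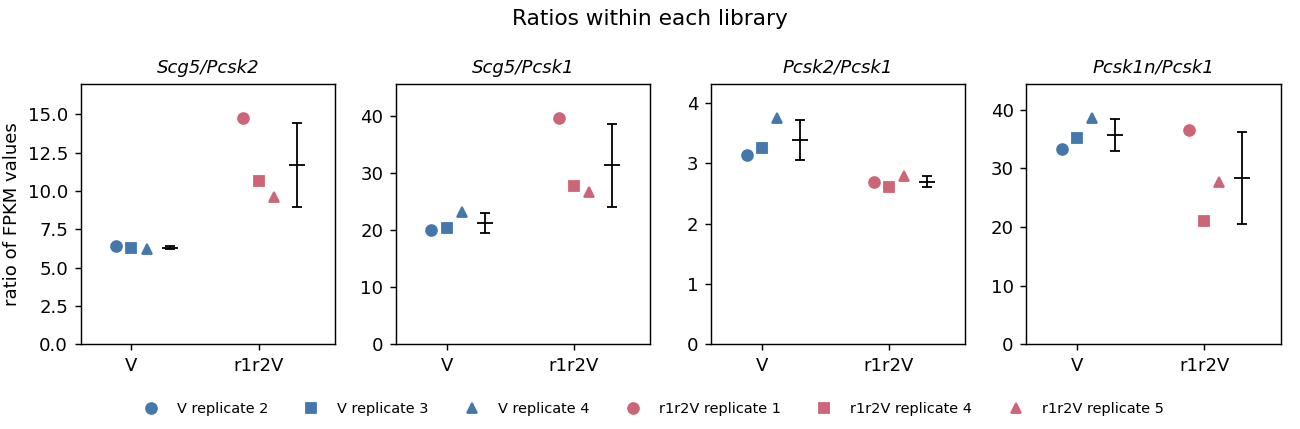
Ratios of FPKM values within each library, V in blue and r1r2V in red, with black marks for mean ± SD (n = 3). Scg5/Pcsk2 is 6.20 to 6.40 in V and 9.59 to 14.8 in r1r2V, whereas Pcsk1n/Pcsk1 overlaps between the groups.

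The enzymes that finish the peptide had overlapping groups. Cpe had 2289, 2102 and 2243 CPM in V against 2105, 2176 and 2397 CPM in r1r2V. Its log2 fold change was 0.01, with a 95% interval of 0.909 to 1.115-fold (edgeR, adjusted p = 0.976). Pam had 344, 365 and 328 CPM in V against 341, 325 and 370 CPM in r1r2V, a 95% interval of 0.899 to 1.11-fold (edgeR, adjusted p = 1.00). Both intervals end below the 1.66-fold of Scg5, a value that led to the choice of Scg5.

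Among granins, Chga was the one whose groups did not overlap, and it did not pass. Chga, the first granin described and an abundant soluble protein of chromaffin granules, had 257, 300 and 289 CPM in V against 223, 188 and 255 CPM in r1r2V. The highest r1r2V library, replicate 5, lay only just under the lowest V library, replicate 2. The log2 fold change was -0.35 (SE 0.11), a 95% interval of 0.668 to 0.926-fold, with an unadjusted p of 0.00823 and an adjusted p of 0.437 (edgeR). All r1r2V libraries lay below all V libraries in 7.63% of the genes tested, and 3.63% were lower with an unadjusted p under 0.05 (7.58% in either direction). V replicate 3, with the pituitary hormone mRNAs, had the highest Chga value, and without it the log2 fold change was -0.30. The part of pituitary RNA in the Chga difference was not tested.

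Scg2, Chgb and Scg3 varied between r1r2V libraries and not in one direction from V. Scg2, the precursor of secretoneurin, had 1665, 1553 and 1425 CPM in V against 1511, 1971 and 1317 CPM in r1r2V, so r1r2V replicates 4 and 5 were the highest and lowest of all 6. Chgb had 344, 365 and 356 CPM in V against 377, 400 and 328 CPM in r1r2V, again with replicates 4 and 5 at the ends. Scg3, which binds Chga to granule membranes, had 287, 281 and 277 CPM in V against 263, 298 and 272 CPM in r1r2V. Log2 fold changes were 0.05, 0.05 and -0.02 (edgeR, adjusted p = 0.937, 0.871 and 0.951), with 95% intervals of 0.850 to 1.26, 0.922 to 1.17 and 0.894 to 1.09-fold. Vgf, a neurotrophin-induced precursor of several peptides, had 389, 335 and 332 CPM in V against 455, 361 and 373 CPM in r1r2V, with overlap and a log2 fold change of 0.17, 95% interval 0.968 to 1.31-fold (edgeR, adjusted p = 0.695).

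Counted together, 0 of the 9 members other than Scg5 passed with edgeR, against 0.416% of all genes tested. DESeq2 and limma-voom called 0 of them too. At an unadjusted p under 0.05 there was 1 (Chga), 6 had positive and 3 negative log2 fold changes, and the median was 0.01, beside 0.01 over all genes tested. They ranged from -0.35 to 0.19. Pcsk1, Pcsk2, Chga and Vgf kept their sign when any 1 library was left out, and the other 5 did not. The log2 fold change of Vgf then ran from 0.06 (without r1r2V replicate 1) to 0.25, that of Pcsk2 from -0.24 to -0.06, that of Pcsk1 from 0.11 to 0.25 and that of Chga from -0.46 to -0.24.

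**Figure D4:**
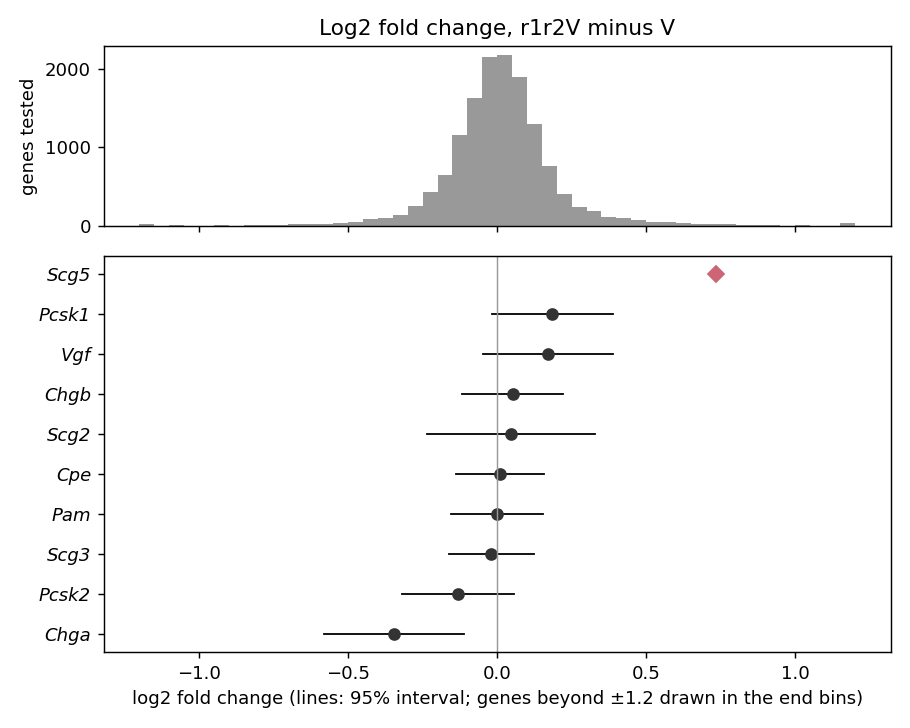
Upper panel, the log2 fold changes (r1r2V minus V) of all 14438 genes tested. Lower panel, those of the 10 members, with 95% intervals for all but Scg5, which was chosen by this value. Scg5 (red diamond, 0.73) stands off from the other 9, which lie between -0.35 and 0.19.

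The r1r2V libraries differed from each other in which granule genes they favoured. All 4 enzyme genes (Pcsk1, Pcsk2, Cpe and Pam) and Chga were highest in r1r2V replicate 5, Chgb, Scg2 and Scg3 in replicate 4, and Scg5 and Vgf in replicate 1. Replicate 5 was also the highest r1r2V library for 9 of 12 marker sums, of glia and vessels as well as neurons. Its summed neuron markers were at 3509 CPM against 3121 and 3176 in replicates 1 and 4, and its astrocyte markers at 1668 against 1439 and 1597. The part of these differences in the enzyme values was not tested. The coefficient of variation was larger in r1r2V than in V for 10 of 10 members, as it was for 71.7% of all genes tested. Its median over the members was 4.87% in V and 11.1% in r1r2V.

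Pairs of members moved together to different extents over the 6 libraries, where both values of a point come from the same RNA pool. Pearson's r of log2 CPM (n = 6) was 0.80 for Scg2 with Scg3 and 0.76 for Scg2 with Chgb, while it was -0.65 for Scg2 with Chga and -0.78 for Chgb with Pcsk2. Scg5 had r of 0.73 with Vgf, 0.50 with Pcsk1, -0.03 with Scg2 and -0.67 with Pcsk2. Because Scg5 was chosen for a group difference, its correlations follow that difference. The pairs named were picked from all pairs of members, with both groups pooled, and were not tested. Scg2 and Chgb were each highest in r1r2V replicate 4 and lowest in r1r2V replicate 5, so their r leans on those libraries.

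The 5 genes outside the set whose log2 CPM was most like that of Scg5 were Rbm28, Gm5796, Fat3, Pla2g4e and Srp14, with Pearson's r from 0.986 to 0.992 over 6 libraries among 10371 genes averaging 10 CPM or more. Gm5796 belongs to a family of near-identical copies, so its value is uncertain. Pla2g4e and Srp14 also lie on chromosome 2, where they start at 120166412 and 118475843. The 5 were picked as most like the values that led to the choice of Scg5, so high r follows from the picking. The share of ranked genes on chromosome 2 was not counted, so nothing is read from the shared chromosome. Pla2g4e had 7.55 ± 0.988 CPM in V against 32.0 ± 14.4 CPM in r1r2V, and Srp14 had 133 ± 0.544 and 145 ± 4.07 CPM (SD, n = 3 each). For the mean of the 5 granins, after each was put on a common scale, the most alike were Slc7a1, Nrxn3, Pigk, Mblac2 and Gpc4 (r from 0.983 to 0.990), and Scg5 had r of -0.08 with it. These too were picked as the top of 10371 genes, so their high r follows from the picking. The granins did not share 1 pattern (Chga with Scg2, r of -0.65). On that common scale their mean was highest in r1r2V replicate 4 (0.55) and lowest in r1r2V replicate 5 (-0.61).

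Genes next to Scg5 on chromosome 2 were not called with it. Of 9 listed genes whose lower ends lie within 1 Mb of its own, 7 were tested, and 0 were called in either direction by edgeR, DESeq2 or limma-voom. At an unadjusted p under 0.05 there was 1 of 7 (7.58% of all genes tested), Aqr, which encodes an RNA helicase of the spliceosome. Aqr, separated from Scg5 by 272.1 kb, had 42.8, 43.3 and 42.4 CPM in V against 34.4, 36.5 and 35.7 CPM in r1r2V, so it lay lower with no overlap (log2 fold change -0.27, edgeR, adjusted p = 0.223). Gjd2, the connexin gene of neuronal gap junctions, separated by 180.5 kb, had 19.6, 17.9 and 18.5 CPM in V against 14.5, 16.3 and 17.5 CPM in r1r2V, also lower with no overlap (log2 fold change -0.21, edgeR, adjusted p = 0.660). Over all genes tested, 7.63% lay below in this way.

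The nearest genes on either side were low. Arhgap11a, 2.4 kb beyond the 5′ end of Scg5, had 2.81 ± 1.09 and 2.51 ± 0.305 CPM, and Grem1, a BMP antagonist gene 17.7 kb beyond its 3′ end, 0.658 ± 0.261 and 0.734 ± 0.0683 CPM (SD, n = 3 each). Fmn1 (0.32), Zfp770 (0.11) and Dph6 (-0.29, all log2 fold changes) had overlapping groups. By lower ends, the nearest called genes on the chromosome were Bub1b, 4.82 Mb away and lower, and Pla2g4e, 6.39 Mb away and higher. Farther off, Cd59a, Adal and Fam227b, which start at 104095753, 121140044 and 125983473, were called higher (log2 fold changes 0.63, 0.63 and 4.67). Ccdc3, which starts at 5137311, was called lower (-1.06). Whether called genes gather in the part of the chromosome around Scg5 was not tested. Pcsk2 and Chgb lie on chromosome 2 as well, from 143546133 and 132781642, and had log2 fold changes of -0.13 and 0.05.

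**Figure D5:**
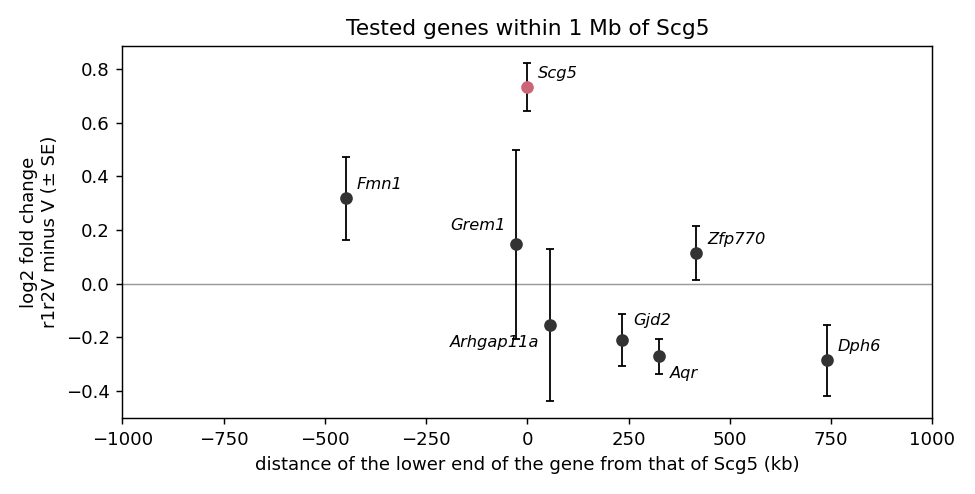
Log2 fold change (r1r2V minus V, ± SE) of the 7 tested genes within 1 Mb of Scg5 against the distance in kb between the lower ends of the genes on the chromosome, with Scg5 in red. Scg5 is at 0.73, and its neighbours lie between -0.29 and 0.32.

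Other genes of the secretory pathway were read from a list of 69 proteases, granule assembly and release factors and peptide-degrading enzymes, of which 67 were tested. By edgeR, 0 rose and 0 fell, and DESeq2 and limma-voom also called 0. At an unadjusted p under 0.05 there were 3 higher and 5 lower of 67, where 3.95% and 3.63% of all genes tested were, and the median log2 fold change was -0.02, beside 0.01 over all genes. The 3 genes with the lowest log2 fold changes were Ide, Ace and Ece2. Ide, which encodes insulin-degrading enzyme, had 67.9, 69.0 and 49.1 CPM in V against 48.6, 44.5 and 45.6 CPM in r1r2V (a log2 difference of -0.43, edgeR, adjusted p = 0.352). V replicate 4 was close to the r1r2V libraries, and without it Ide was called lower. Ace, the angiotensin-converting enzyme gene, had 34.9, 32.5 and 38.1 against 27.8, 22.3 and 31.2 CPM (edgeR, adjusted p = 0.471). Ece2, an endothelin-converting enzyme gene, had 120, 116 and 112 against 107, 95.2 and 97.9 CPM (edgeR, adjusted p = 0.489).

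The 3 highest in that list were Ccdc186, Rab3b and Syt10. Ccdc186, a factor of dense-core granule maturation, had 5.53, 5.63 and 3.62 CPM in V against 7.20, 7.07 and 6.88 CPM in r1r2V (a log2 difference of 0.51, edgeR, adjusted p = 0.544). Rab3b, a GTPase gene of vesicle release, had 77.2, 91.8 and 89.1 against 96.6, 129 and 103 CPM (log2 fold change 0.35, edgeR, adjusted p = 0.481). Syt10, a calcium sensor gene, had a log2 fold change of 0.29 with overlapping groups. Ptprn and Ptprn2 encode receptor-like proteins of the granule membrane. Ptprn, 1 of the 5 lower genes counted above, had a log2 fold change of -0.18 with overlapping groups (edgeR, unadjusted p = 0.0308, adjusted p = 0.600). That of Ptprn2 was -0.05. Log2 fold changes were 0.06 for Cadps and 0.05 for Cadps2, granule priming factors, and -0.08 for Furin, the convertase of the constitutive pathway. Pcsk1n had 1183, 1211 and 1186 CPM in V against 1262, 799 and 1158 CPM in r1r2V, where replicate 4 lay below all the others (log2 fold change -0.15, edgeR, adjusted p = 0.786).

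Prohormones and other secreted cargo were read from a list of 55 genes, of which 53 were listed and 40 tested. None was called by edgeR, DESeq2 or limma-voom, 2 of 40 were higher and 2 lower at an unadjusted p under 0.05 (3.95% and 3.63% of all genes tested), and the median log2 fold change was 0.04, beside 0.01 over all genes. Avp, the vasopressin gene, had 247, 259 and 360 CPM in V against 160, 190 and 384 CPM in r1r2V. Vip, the vasoactive intestinal peptide gene, had 85.8, 53.0 and 51.8 against 50.5, 72.0 and 11.4 CPM. Among r1r2V libraries, replicate 5, highest for the enzymes and for Avp, was lowest for Vip. Sst, the somatostatin gene, had 208, 288 and 255 against 216, 126 and 286 CPM, and Penk, the enkephalin precursor gene, 222, 169 and 192 against 223, 220 and 163 CPM. The groups overlapped in each of these.

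Most genes at the ends of this list differed widely between libraries of 1 group. Pmch (log2 fold change 1.26) and Pomc (-1.80) have the library values given above, and Prok2, a prokineticin gene of SCN output, had 7.67, 2.99 and 3.62 CPM in V against 12.1, 20.5 and 1.75 CPM in r1r2V (1.26). Npy had 5.36, 20.3 and 6.22 CPM in V, with V replicate 3 highest (-0.82), and Gnrh1 a log2 fold change of -0.56. Igf1, a growth factor gene, had 3.95, 4.45 and 4.50 against 4.41, 8.96 and 6.59 CPM (0.63). Log2 fold changes of Pdyn, the dynorphin precursor gene, and Grp, the gastrin-releasing peptide gene, were 0.09 and -0.09.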

How the data were processed

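Each library has a deposited table with, per the file headers, an expected count (the authors' estimate of reads per gene, 9.9% of values not whole) and an FPKM, which the authors scaled by transcript length and library. RSEM 1.2.12, Bowtie2 2.2.5 and HISAT2 2.0.4 are named for build mm10, per the submitters' processing notes, as are Cufflinks 2.2.1, StringTie 1.0.4, DESeq2 and GATK. Which tool made which value, and whether strand was used, is not stated there. A gene not listed in a library was set to 0.

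Expected counts were rounded, filtered with filterByExpr (minimum count 10), scaled with TMM, and compared with edgeR 4.0.16 (quasi-likelihood, R 4.3.3) with Benjamini-Hochberg adjustment over all 14438 genes and a threshold of 0.05. Standard errors and 95% intervals come from that test. Alternatives were DESeq2 1.42.0, limma 3.58.1 (voom, and log2(FPKM + 1) or log2(FPKM + 0.1)), other scalings and filters, and each library left out. On simulated counts (14354 genes), the test recovered 4% of 1.2-fold, 68% of 1.5-fold, 84% of 2-fold and 96% of 4-fold changes, and 12% of its calls were unchanged genes. No pair of replicates agreed within sampling noise, so none was merged as a repeat deposit. Chi-square per degree of freedom was 3.75 to 5.40 for pairs of V and 11.3 to 13.0 for pairs of r1r2V, so V replicates were closer to each other. This does not show that they are independent animals.

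The members and lists were chosen with earlier results of these data known. Named besides the members were, in each list, called genes, the 3 largest changes each way with a mean of at least 1 CPM and genes fixed by name (Avp, Vip, Grp, Prok2, Sst, Penk, Pdyn, Pcsk1n, Furin, Ptprn, Ptprn2, Cadps, Cadps2), every tested gene within 1 Mb of Scg5, and the 5 genes most like Scg5 or the granins. Tshb, Oxt and other marker genes, called neighbours and ratios were picked after their values were seen. Marker sums and pituitary and tuberal hormone values are CPM of the unscaled total. Transcript copies were searched with BLAST+ in GENCODE vM21.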

Additional observations from a re-analysis of the deposited data

How the results depend on the processing

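The log2 fold change of Scg5 stayed within 1 SD between replicates of its value in all 14 alternatives (0.61 to 0.81), and the count of members called by edgeR was 0 without any 1 V library and 1 without any 1 r1r2V library (range 0 to 1). Over all genes, DESeq2 called 69 higher and 40 lower, against 43 and 17 with edgeR. Without 1 library the counts were 19 to 52 higher and 7 to 24 lower. The lowest came from dropping a V library: replicate 2 (20 and 7), replicate 3 (20 and 8) or replicate 4 (19 and 7). Dropping an r1r2V library gave 33 to 52 higher and 15 to 24 lower. In the secretory list, leaving out 1 library gave 0 to 1 lower, the 1 being Ide without V replicate 4. No member other than Scg5 passed in any alternative. The level order in V kept 10 of 10 places on CPM per kilobase and 8 when any 1 V library was left out, the changes lying among Vgf, Chgb and Scg3. The cause of these shifts was not tested.

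Signs of the log2 fold change turned for members near 0. Pam was -0.0008 with limma-voom, -0.008 with total counts only, and -0.0066 and -0.0067 on log2(FPKM + 1) and log2(FPKM + 0.1). With 1 library left out, values ran from -0.0572 to 0.0423 for Pam, -0.0505 to 0.0486 for Cpe, -0.1305 to 0.1658 for Scg2, -0.0107 to 0.1248 for Chgb and -0.073 to 0.0187 for Scg3. No paired analysis was possible because V and r1r2V have just replicate number 4 in common. At these depths and with 3 libraries a group, a 1.2-fold change was seldom recovered in simulated counts with equal spread in both groups (4%).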
